A study of Mus musculus with 3 samples.

Results

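Wt1, Pax2, the 4 Sall genes and the 2 Osr genes encode transcription factors of the early kidney. Their transcripts were examined in sorted cap mesenchyme, the progenitors that surround the ureteric tips and form nephrons. Members were taken as all probe sets that the platform annotation assigns to a single gene symbol on this list. This gave 11 probe sets for 7 of the 8 genes, out of 45037 probe sets without controls and 18193 named genes. Pax2 had no such probe set and was not analysed here.

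Cells were sorted from dissociated E15.5 kidneys (Theiler stage 23) of CD-1 mouse embryos carrying Tg(Six2-EGFP/cre)1Amc, a transgene named for Six2, the nephron progenitor regulator, that encodes a fluorescent protein and Cre. The labels leave the embryos' sex unknown. All 3 samples belonged to a single group, each was a pool of about 5 to 10 kidneys with its own array, and they are called pools 1, 2 and 3. No other cell population or genotype was compared, so each probe set was set against the background level of its array. The number of arrays limits the precision, and the p-values measure the spread between these pools, which the labels do not describe as separate litters.

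Wt1 and the Sall and Osr proteins bind DNA through zinc fingers, and Pax2 through a paired domain. Wt1, Pax2, Sall1 and Osr1 are each needed for the metanephric kidney to form or to grow. Wt1 later serves podocytes, Pax2 is also active in the ureteric bud, and Sall proteins recruit the NuRD repressor complex.

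Transcripts of Wt1, Sall1, Sall2 and Osr1 were above background in the sorted cells, whereas those of Sall3, Sall4 and Osr2 were not. Above background means that the mean of log2(signal + 16) exceeded the 95th percentile of 150 background probe sets on the same array, in a one-sided limma test with a Benjamini-Hochberg adjusted p under 0.05 over all 45037 probe sets. The background probe sets belong to genes of taste and smell, hair and mucosal defence. Of the 11 member probe sets 4 passed, against 41.5% of all probe sets, and the count was also 4 at an unadjusted p under 0.05. Of the 7 measured members 4 passed on at least 1 probe set, against 54.4% of all named genes, so the share of members was close to the background share.

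**Figure D1:**
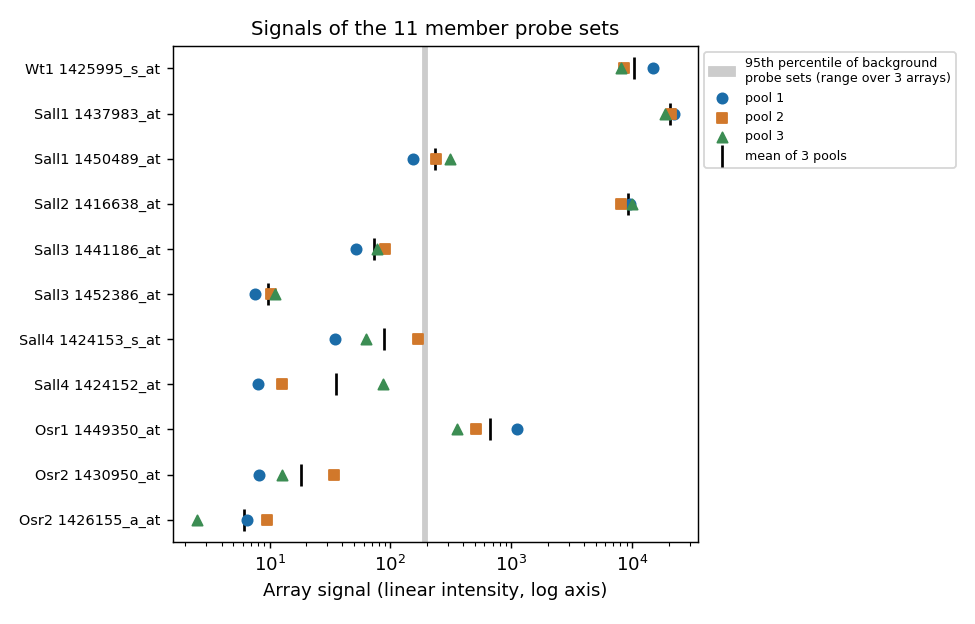
Array signal (linear intensity, log axis) of the 11 member probe sets in pools 1, 2 and 3, with the mean as a tick and the background level of the 3 arrays as a grey band. The probe sets of Wt1, Sall2 and Osr1 and 1 of the 2 probe sets of Sall1 lie to the right of the band in every pool, and those of Sall3, Sall4 and Osr2 lie to its left.

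Across the arrays, the background level was a signal of 197, 186 and 201 in pools 1, 2 and 3, and the median signals were 222, 197 and 184. The marker lists were chosen with earlier results of these data known, and 54.4% of all named genes were above background. Of the 14 genes listed as markers of cap mesenchyme (members left out) 13 were above background, among them Six2, by whose transgene the cells were sorted. None of 6 endothelial markers passed in limma (0 also at an unadjusted p under 0.05), and 1 of 6 macrophage markers did. Markers of stroma were above background in 11 of 13 cases, with a median 2.90 log2 units above the level against 2.85 for the cap mesenchyme markers. Markers of early nephron (9 of 14), podocyte (2 of 5), ureteric bud (4 of 12) and neural cells (2 of 4) were above background in part. A bulk signal cannot tell fewer cells of a type from less RNA per cell.

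Wt1, a zinc finger activator and repressor that progenitors need for survival and commitment, was measured by probe set 1425995_s_at, designed on M55512. Its suffix marks probes that can match several transcripts, and no second probe set was at hand to set beside it. Wt1 read 14753 in pool 1, 8513 in pool 2 and 8019 in pool 3, with a mean of 10428 ± 3754 (SD, n = 3). Pool 1 was the highest, pools 2 and 3 lay close together, and none of the 150 background probe sets was brighter than Wt1 on any array. The mean lay 5.58 ± 0.19 (SE) log2 units above the background level (adjusted p = 6.5e-08, limma). In the RefSeq annotation (GRCm38.p6) the gene lies on chromosome 2 from 105126529 to 105173614.

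Genes tied to Wt1 were mostly above background as well. All 5 measured cofactors passed, against 54.4% of all named genes. Their median lay 4.40 log2 units above the background level, against 1.20 over all named genes. Basp1, a corepressor that binds Wt1, had a signal of 33173 ± 9985, and Wtap, a subunit of the RNA methyltransferase complex first found as a Wt1 partner, had 19660.2 ± 3491 (SD, n = 3 each). Wtip (3674 ± 469), Pawr (3294 ± 838) and Ciao1 (4457 ± 684), which encode further Wt1-binding proteins, also passed (limma). Of 9 measured genes listed as Wt1 targets 7 passed. Gas1, which encodes a cell surface protein that enhances FGF signalling in progenitors, had a signal of 26835 ± 2014, the BMP modulator gene Bmper had 21506 ± 2161, and Bmp7 had 12140.1 ± 855 (SD, n = 3 each). Wnt4 (5631 ± 921), Spry1 (5397 ± 1595), Igf1r (3753 ± 419) and Podxl (695 ± 205) passed too. Podxl no longer passed when the level was raised to the 99th percentile (adjusted p = 0.059, limma). Some of these genes also had probe sets that did not pass. Pawr and Podxl passed on 1 of 2 probe sets each, Gas1 on 2 of 3 and Igf1r on 3 of 5.

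The targets that did not pass were Nphs1, the nephrin gene of the podocyte slit diaphragm, and Amhr2, a receptor gene of the gonad. Nphs1 read 119, 110 and 102 and Amhr2 read 94.5, 126 and 190 in pools 1, 2 and 3, all below the level. These lists were compiled from general knowledge, but with earlier results of these data known. They do not show that Wt1 acts on the genes here.

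Egr proteins have zinc fingers similar to those of Wt1 and bind related GC-rich sites. Of the 4 Egr genes 3 were above background. Egr1 read 52566, 79613 and 58462 in pools 1, 2 and 3, and Egr2 read 3188, 2561 and 6466. Egr3 read 314, 802 and 2232, so pool 3 was the highest for both Egr2 and Egr3 and pool 2 for Egr1. Egr3 passed on 1 of its 2 probe sets, with adjusted p = 0.0042 (limma). It no longer passed with the level at the 99th percentile (adjusted p = 0.073, limma) or without pool 2 (adjusted p = 0.054, limma). Egr4 did not pass (190 ± 77.4, SD, n = 3). Egr genes are immediate-early genes, and the kidneys had been treated with trypsin for 5 minutes at 37 °C before sorting; the part of this step in their signals was not tested.

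Pax2 lies on chromosome 19 from 44746601 to 44838269 (GRCm38.p6) and encodes an activator of Gdnf in the mesenchyme. Its relatives and partners were examined in its place. Of the 8 other Pax genes only Pax8, the closest relative that acts redundantly with Pax2, was above background. Pax8 passed on 1 of its 2 probe sets. This probe set read 1539.5 in pool 1, 1760 in pool 2 and 2579 in pool 3, 3.20 log2 units above the background level (adjusted p = 7.4e-07, limma). All 3 values exceeded the level, with pool 3 the highest. Pax5, the other relative in that subfamily, read 52.9, 117 and 21.6, and Pax6, of eye and pancreas, read 124, 129 and 111. Pax9 read 283, 182 and 54.2, crossing the level in pool 1 alone, and Pax4 read 17.8, 223 and 56.9, crossing it in pool 2 alone. Pax1, Pax3 and Pax7 had mean signals from 20.6 to 63.8. None of these 7 genes passed.

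For the methyltransferase complex that Pax2 recruits through the adaptor Paxip1, 10 of 10 measured genes were above background, against 54.4% of all named genes. Their median lay 4.82 log2 units above the level. Kmt2c passed on 3 of its 4 probe sets, Kmt2d on 1 of 2 and Kdm6a on 2 of 4. Paxip1 had a signal of 2839 ± 351, and Pagr1a, which encodes its binding partner, had 4361 ± 592. The histone H3 methyltransferase genes Kmt2c and Kmt2d had 6975 ± 1079 and 7224 ± 1326, and the demethylase gene Kdm6a had 2054 ± 293 (SD, n = 3 each). The shared core genes Ash2l, Rbbp5, Wdr5 and Dpy30 ranged from 4063 ± 481 for Ash2l to 10105 ± 1461 for Dpy30, and Ncoa6, a coactivator gene, had 6143 ± 1250. These genes are active in many cell types.

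Sall1, which kidneys need for ureteric bud invasion and which keeps progenitors from differentiating, gave opposite calls on its 2 probe sets. Probe set 1437983_at, designed on BB739342, read 22313, 20993 and 18705 in pools 1, 2 and 3. These values lay within 1.19-fold of each other, and none of the background probe sets was brighter. The mean of 20670.2 ± 1825 (SD, n = 3) was 6.62 ± 0.14 (SE) log2 units above the level (adjusted p = 1.6e-08, limma).

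Probe set 1450489_at of Sall1, designed on AB051409, read 153 in pool 1, 237 in pool 2 and 308 in pool 3. Pool 1 was below the level and pools 2 and 3 were above it, with 13, 5 and 3 background probe sets brighter. The mean of 233 ± 77.9 was 0.19 ± 0.30 (SE) log2 units above the level and did not pass (adjusted p = 0.58, limma). Its distance had no settled sign, at -0.94 against the 99th percentile of background and -0.0041 without pool 3.

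Split calls were common on these arrays. Among the 4 members with 2 probe sets Sall1 was the only gene with 1 above background and 1 not, and 33.2% of all 4695 genes with 2 probe sets were split in this way. Probe sets differ in affinity. The log2 ratio of 3' to 5' control probe sets ran from 1.82 to 3.28 for beta-actin and from 4.08 to 5.05 for Gapdh over the arrays. The part of RNA quality in the split calls was not tested. Where the probes lie on the transcript was not used here, so the split calls are no measure of transcript forms.

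Sall2, a paralog active in neural and eye development, had a single probe set, 1416638_at, designed on NM_015772. It read 9574, 8122 and 9885 in pools 1, 2 and 3, with a mean of 9193 ± 941 (SD, n = 3). The pools lay within 1.22-fold of each other, and no background probe set was brighter. The distance from the level was 5.45 ± 0.12 (SE) log2 units (adjusted p = 1.6e-08, limma).

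Sall3, a paralog of palate and nerve development on chromosome 18, did not pass on either probe set. Probe set 1441186_at read 52.3, 90.4 and 77.6 in pools 1, 2 and 3, and between 37 and 59 of the 150 background probe sets were brighter. Probe set 1452386_at read 7.64, 10.2 and 11.1, with 112 to 120 background probe sets brighter. The distances were -1.26 and -3.04 log2 units, so both lay well within the range of background signals.

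Sall4, known for its role in pluripotent and germ cells, did not pass on either probe set. Probe set 1424153_s_at read 35.1, 168 and 62.8 in pools 1, 2 and 3, and 1424152_at read 7.96, 12.6 and 86.3. All 6 readings were below the level of their array, so no order of the pools is read from them. The distances were -1.22 and -2.35 log2 units (adjusted p = 1 each, limma). None of 6 germ cell and pluripotency markers passed in limma either (1 at an unadjusted p under 0.05), and their summed signals were 480, 495 and 601 in pools 1, 2 and 3.

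Of the 7 measured members, start site windows from RefSeq (GRCm38.p6) were examined for 2, Sall1 and Sall2. Windows of the other members, Sall3 and Sall4 among them, were not examined. The choice of windows therefore says nothing about which Sall genes were above background. The most upstream annotated starts of Sall1 and Sall2 are shown because these paralogs differ in base composition there while both have strong signals. Each sequence is the 250 bases before the start, on the minus strand, with motif matches in capitals.

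Sall1, chr8:89044163-89044412: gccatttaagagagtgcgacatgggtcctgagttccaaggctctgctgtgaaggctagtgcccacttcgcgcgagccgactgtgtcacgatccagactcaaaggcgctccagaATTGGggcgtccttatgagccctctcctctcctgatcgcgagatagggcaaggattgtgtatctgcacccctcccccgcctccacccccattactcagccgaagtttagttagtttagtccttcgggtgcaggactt
Sall2, chr14:52328671-52328920: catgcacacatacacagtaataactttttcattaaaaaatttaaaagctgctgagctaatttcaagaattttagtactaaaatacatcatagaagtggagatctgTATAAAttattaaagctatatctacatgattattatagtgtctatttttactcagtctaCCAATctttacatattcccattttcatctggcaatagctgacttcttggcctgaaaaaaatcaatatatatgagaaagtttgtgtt

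The Sall1 window had a GC content of 56.4% and 13 CpG dinucleotides, and the Sall2 window 28% and 0, against medians of 52.4% and 6 over 32851 windows of this length. The motifs searched on both strands were the TATA box TATAAA, the CCAAT box CCAAT, the GC box GGGCGG, the Egr and Wt1 family site GCGTGGGNG, the MEF3 site TCAGGTTTC of sine oculis proteins and the AT-rich Sall site AATATT. They occurred in 12.4%, 33.8%, 32.7%, 1.65%, 0.387% and 6.17% of all windows. The Sall1 window held 1 CCAAT box, and the Sall2 window held 1 TATA box and 1 CCAAT box.

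RefSeq lists 3 starts for Sall1 and 2 for Sall2. The second and the third Sall1 windows had GC contents of 74.4% and 78.4%, with 25 and 30 CpG dinucleotides and 4 and 1 GC boxes, and the second Sall2 window had 64.4% with 6. The single match to the Egr and Wt1 family site lay in the third Sall1 window, on the strand opposite to the gene, and is shown with 10 bases on either side.

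Sall1, chr8:89042970-89042998 (minus strand): gccagccccaCCCCCACGCggccctgctc

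These matches describe letters only. The arrays do not tell which start was used, and the parts of the motifs in the signals were not tested.

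NuRD, the deacetylase and remodelling complex bound by Sall proteins, had 13 of 13 measured genes above background, against 54.4% of all named genes. Their median lay 3.62 log2 units above the level. The histone-binding subunit genes Rbbp7 and Rbbp4 had signals of 54753 ± 9209 and 52190.1 ± 10592, and the deacetylase genes Hdac2 and Hdac1 had 33410.3 ± 6129 and 9811 ± 2926 (SD, n = 3 each). The remodeller genes Chd4 and Chd3 had 2315 ± 545 and 2061 ± 402, and Mbd3, a subunit that separates this complex from its Mbd2 form, had 890.4 ± 389. The scaffold gene Gatad2b was the least even, at 5986, 3161 and 881 in pools 1, 2 and 3. Gatad2b passed on 2 of its 5 probe sets, Gatad2a on 4 of 5, Chd4 and Mta3 on 2 of 3 each, and Mta1 on 1 of 2. Like the methyltransferase genes, most NuRD genes are active in many cell types.

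**Figure D2:**
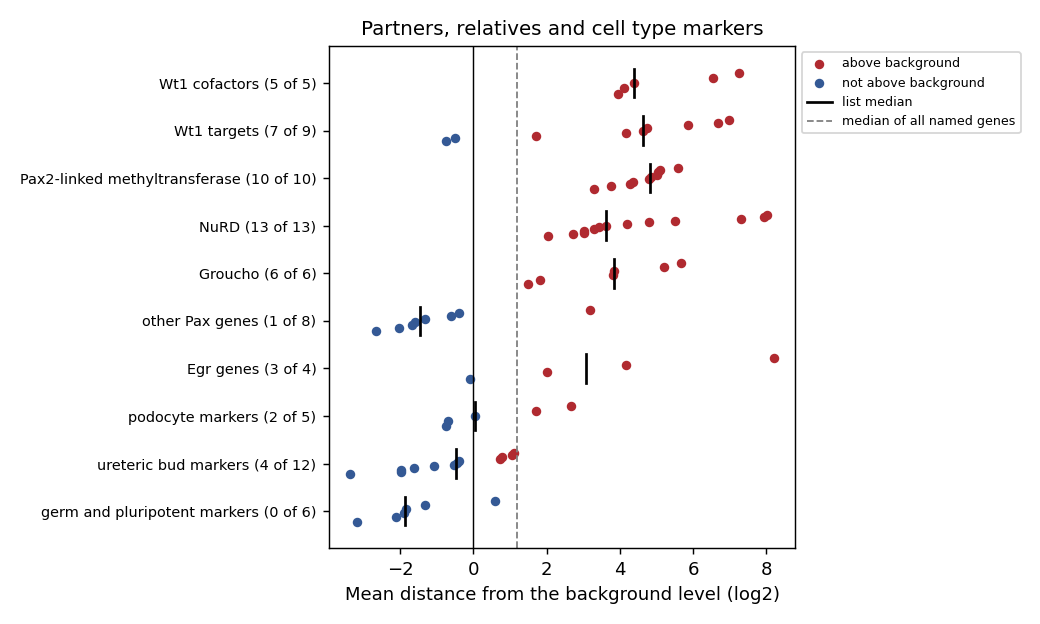
Mean distance from the background level (log2) of each measured gene in 10 lists, with red points above background, blue points not, a black tick for the list median and a dashed line for the median of all named genes at 1.20. Labels give the number above background of the number measured, which is complete for the Wt1 cofactors, the Pax2-linked methyltransferase complex, NuRD and the Groucho genes, and 1 of 8 for the other Pax genes.

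Osr1, which marks the intermediate mesoderm from which the kidney forms and later holds back differentiation of progenitors, was above background in a call that depended on the background percentile. Its only probe set, 1449350_at, designed on NM_011859, read 1122 in pool 1, 515 in pool 2 and 356 in pool 3. All 3 values exceeded the level, by 5.71-fold, 2.77-fold and 1.77-fold, with 0, 1 and 3 background probe sets brighter. The mean of 665 ± 404 (SD, n = 3) was 1.53 ± 0.31 (SE) log2 units above the level (adjusted p = 0.0024, limma). Against the 99th percentile of background the distance was 0.40 and the call was lost (adjusted p = 0.27, within 0.00023 to 0.27 over 12 alternatives).

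Osr2, the paralog best known from the palate and joints, did not pass on either probe set. Probe set 1430950_at read 8.13, 34.3 and 12.6 in pools 1, 2 and 3, and 1426155_a_at read 6.55, 9.48 and 2.51. Between 79 and 145 of the 150 background probe sets were brighter on each array. The distances were -2.69 and -3.26 log2 units (adjusted p = 1 each, limma), so both probe sets of this gene gave the same call, as in 35.7% of genes with 2 probe sets, where neither passed. Transcripts bound weakly by their probes could be present below the level.

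Groucho family genes, some of which encode corepressors that Osr1 can bind, were above background in 6 of 6 cases, against 54.4% of all named genes. Their median lay 3.83 log2 units above the level. Tle4 had a signal of 10814.5 ± 1886, Tle3 of 7758 ± 367, Tle1 of 3102 ± 862 and Tle2 of 2997 ± 723 (SD, n = 3 each). Tle4 passed on 2 of its 3 probe sets and Tle3 on 1 of 4. The shorter family members Tle6 and Tle5 had 728 ± 37.1 and 580.1 ± 84, and Tle5 no longer passed with the level at the 99th percentile (adjusted p = 0.21, limma).

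**Figure D3:**
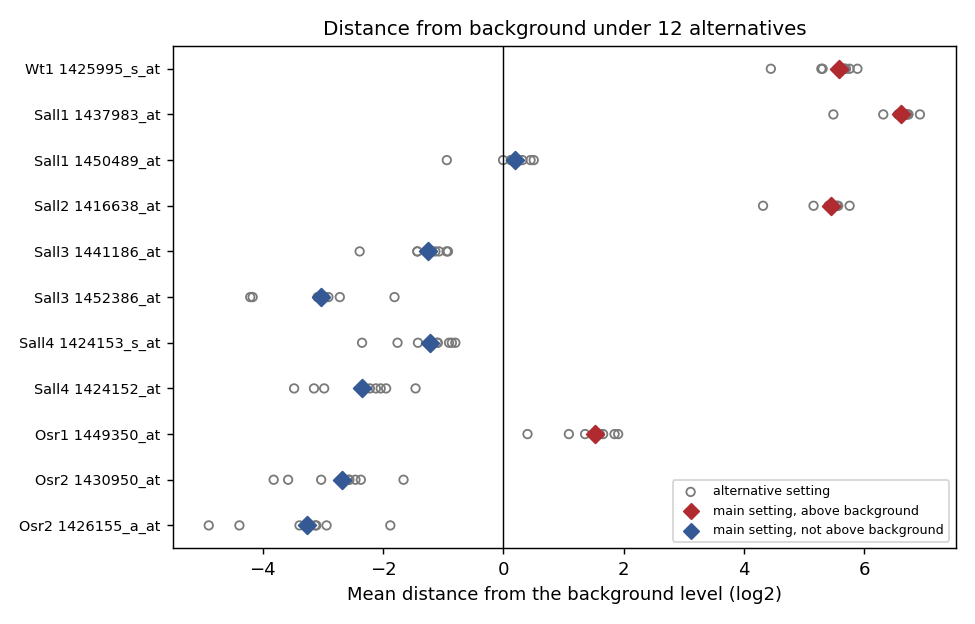
Mean distance of each member probe set from the background level (log2), as a filled diamond for the main setting (red above background, blue not) and open circles for the alternative settings. Of the 124 pairs of probe set and alternative, 121 kept the direction and the call; the exceptions are 2 for Sall1 1450489_at, which straddles 0, and 1 for Osr1.

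Among the 4 member probe sets above background, the pools differed most for Osr1. Its highest and lowest values were 3.15-fold apart, against 1.84-fold for Wt1, 1.22-fold for Sall2 and 1.19-fold for Sall1 1437983_at. Of these 4 probe sets 1 reached 2-fold, compared with 12.3% of all single-gene probe sets above background. A fold at least as large as that of Osr1 was seen in 2.98% of these probe sets and one at least as large as that of Wt1 in 16.9%. Without pool 1 the Osr1 values were 1.45-fold apart. Among the 7 member probe sets not above background 5 reached 2-fold, up to 10.8-fold for Sall4 1424152_at, against 65.4% of such probe sets.

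Wt1, Osr1 and Sall1 1437983_at were highest in pool 1 and lowest in pool 3, and Sall2 was highest in pool 3 and lowest in pool 2. Of all single-gene probe sets above background 35.6% were highest in pool 1 and 38.3% in pool 3. Other measures also differed between the pools. The summed signals of the cap mesenchyme markers were 113920, 130817 and 115535 in pools 1, 2 and 3, and 2 of the 13 above background were highest in pool 1. Those of the stromal markers were 56398, 54079 and 48725, and 3 of the 11 above background were highest in pool 1. Early nephron markers summed to 47078, 52106 and 50008. Podocyte markers summed to 2126, 2689 and 2536. Ptpro (1133, 1440 and 1392 in pools 1, 2 and 3) and Podxl (492, 903 and 690) were above background. The other 3 measured podocyte markers were not, with Nphs1 below the level on every array. The sums were 2241, 1616 and 3050 for ureteric bud markers and 846, 859 and 1277 for macrophage markers, with pool 3 the highest for both. Only 4 of 12 ureteric bud and 1 of 6 macrophage markers were above background, so these sums include signals that did not pass. The log2 ratio of 3' to 5' control probe sets was 1.82, 3.28 and 3.18 for beta-actin and 4.36, 5.05 and 4.08 for Gapdh. The part of cell makeup and RNA quality in the differences of Wt1 and Osr1 was not tested.

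**Figure D4:**
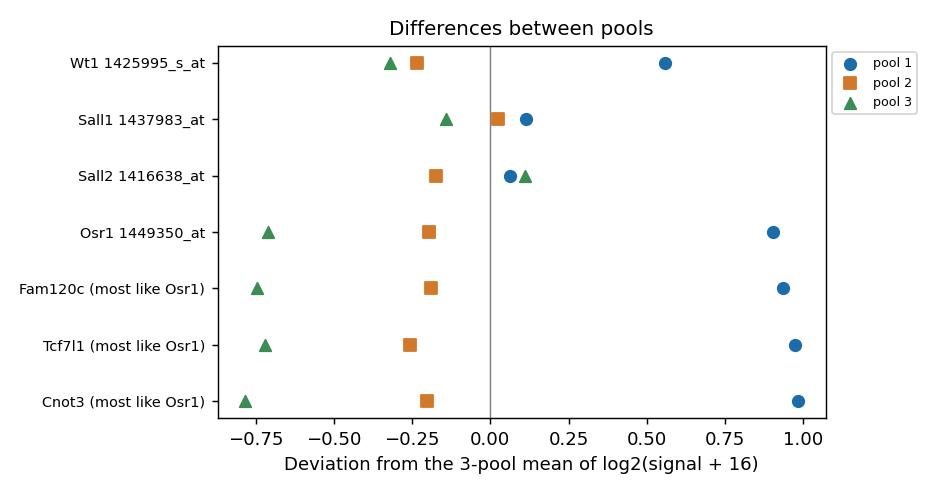
Deviation of each pool from the 3-pool mean of log2(signal + 16) for the 4 member probe sets above background and for the 3 genes most like Osr1. Pool 1 lies to the right for Osr1 and Wt1, and the points of Sall1 1437983_at and Sall2 lie close to 0.

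The genes whose deviations lay nearest to those of Osr1 were Fam120c, Tcf7l1 and Cnot3, at Euclidean distances of 0.047, 0.094 and 0.11 log2 units over the 3 arrays, out of 9891 other genes above background. Tcf7l1, which encodes a transcription factor of the WNT pathway, read 10781, 4586 and 3320 in pools 1, 2 and 3. Fam120c read 1803, 819 and 552, and Cnot3, a subunit gene of the deadenylase complex, read 1218, 527 and 347. In all, 14 genes lay within 0.2 log2 units of Osr1. With 3 arrays this likeness is a description of the pools.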

How the data were processed

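Each probe set has a linear intensity per array in the deposited table; the authors computed it with GCOS, per the submitters' processing notes, with version, settings and genome build not given in the sources used here. Biotin-labelled target came from 2 rounds of amplification, per the labels. A mean trimmed by 2% at both ends came to 1500 on each of the arrays, which had thus been scaled to a common target. Genes were named from the platform annotation (34945 probe sets with 1 symbol, 932 with several, 9160 with none). Background was represented by 150 probe sets of defensin, keratin-associated protein and chemosensory (olfactory, vomeronasal, bitter taste) receptor genes. The 95th percentile of their log2(signal + 16) was subtracted on each array, and limma 3.58.1 in R 4.3.3 (intercept only, eBayes with an intensity trend) tested the mean against 0 in 45037 probe sets, one-sided. The pseudocount of 16 understates distances of weak signals. The procedure was tested on simulated data. A gene passed if any probe set did, and its brightest probe set gave its values. Pools were compared without a test. All members and all genes of the partner and family lists could be named, and genes most like a member whose pools differed at least 2-fold. Members and lists were chosen with earlier results of these data known. Of 143 list genes 136 had a probe set and were analysed. The 12 alternatives changed the pseudocount, the percentile and makeup of background, the normalization, the variance trend, the filters on dim or shared probe sets, or left out 1 pool. Tables and plots were made in Python 3.11.15 (pandas 2.3.3, matplotlib 3.10.9).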

Additional observations from a re-analysis of the deposited data

How the results depend on the processing

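Wt1, Sall1 1437983_at and Sall2 kept their calls under every alternative that gave them a value (distances of 4.45 to 5.89, 5.49 to 6.93 and 4.32 to 5.76 log2 units), and the probe sets of Sall3, Sall4 and Osr2 stayed below the level in each. Without probe sets of suffix _s_at or _x_at, Wt1 had no value and 3 of the members passed. At the 99th percentile of background Osr1 lost its call (0.40, adjusted p = 0.27, limma) and the number of member probe sets above background with a 2-fold difference between pools went from 1 to 0. That number ranged from 0 to 1 when a pool was left out; it was 0 without pool 1. Among the members and the genes of the partner and family lists, for which alternatives were run gene by gene, the sign turned for 3: for Sall1 1450489_at at the 99th percentile (-0.94) and without replicate 3 (-0.0041, up to 0.45 without another pool), for Pax9 without replicate 3 (0.23, down to -0.83 without another), and for Egr4 at the 90th percentile (0.22), with olfactory and vomeronasal background only (0.026) and without replicate 3 (0.23, down to -0.40 without another); the cause was not tested. The genes of all lists above background numbered 89, and 76 to 91 under the alternatives. No paired analysis was possible because all samples form 1 group. Weak signals limit what can be read from Sall3, Sall4 and Osr2.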
